A study of Rattus norvegicus with 6 samples.

Results

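Cytosolic ribosomal protein genes encode the protein part of the ribosomes that translate nuclear mRNAs, and their RNA was measured here in rat intervertebral discs. The members are the protein coding rows whose gene name is Rpl or Rps followed by a number, with or without a short suffix, together with Rpsa, Rplp0, Rplp1 and Rplp2. This rule takes 91 of the 30562 rows of the deposited count table, 39 named for the small 40S subunit and 52 for the large 60S subunit. They carry 86 different names, since 5 names stand on 2 members each. A minimum on counts was passed by 80 of the 91, and the 11 others held at most 47 counts each over all libraries, with 2 of them at 0 in every library.

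In the ribosome, the small subunit decodes the mRNA and the large subunit forms the peptide bonds, while a flexible stalk of acidic proteins on the large subunit recruits the factors that drive elongation. Ribosomal protein genes are transcribed together in nearly all cells, and many of their mRNAs begin with a run of pyrimidines, a feature through which mTORC1 and Larp1 control their translation. A few members are paralogs used in particular settings, such as Rpl3l in striated muscle and Rpl10l and Rpl39l in male germ cells, and Rps27l is known as a gene that p53 can induce.

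The study injected the needle-punctured tail discs of male Sprague-Dawley rats with a nanocarrier that holds an siRNA against Spp1, which encodes the matrix protein osteopontin, or left the injured discs without it, and sequenced their RNA. Treated 1, 2 and 3 are the libraries labelled with AF-PTK@LEV@SPP1, and Control 1, 2 and 3 are those labelled as controls; all 6 are labelled wild type. The sources differ on several points. The labels give no treatment for Control, 14 days and sorted macrophages of mice, and the methods give PBS for Control, whole disc tissue, an age of 12 weeks, a first injection of 10 µL after 24 h, 1 mg of siRNA per kg and 8 weeks in all. Library totals ran from 15560728 counts in Treated 2 to 17942989 in Control 1. The labels do not say whether a library is 1 animal, and the methods give 3 animals in each group.

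Control 2 and Control 3 may be the same library deposited 2 times. In 14393 genes whose counts over both libraries reached 20, the variance between them was 1.33 times that of counting alone, and 16 genes differed at an adjusted p under 0.05 (chi-square test of counts, Benjamini-Hochberg adjustment). The same ratio was 79.9 between Control 1 and Control 2 and 51.3 between Treated 2 and Treated 3, the closest other pair. Among 80 ribosomal protein rows with that many counts, the ratio was 2.11 between Control 2 and Control 3 and 341.2 between Control 1 and Control 2. Of these rows, 1 differed between Control 2 and Control 3 and 78 between Control 1 and Control 2. The counts of Control 2 and Control 3 were therefore summed and counted as 1 sample, which leaves 2 Control and 3 Treated samples.

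Spp1, the target of the siRNA, was at 8228, 4501 and 4499 in Control 1, 2 and 3 and 8151, 6961 and 8543 in Treated 1, 2 and 3, in normalized CPM. Normalized CPM are counts relative to library size, scaled by the TMM factors of edgeR. The sums of marker lists and the levels of their highest genes are given in CPM relative to library totals, without these factors. Control 1 was as high as the Treated libraries, and the groups overlapped. Its log2 fold change of Treated over Control was 0.31 (adjusted p = 0.628 by the quasi-likelihood test of edgeR), and its mean was not lower in the libraries labelled Treated. Every direction below refers to these labels. Because the labels name sorted macrophages, macrophage markers were read, without a sorted sample to compare them with. On this list 9 of 9 genes were found, with Mrc1 the highest and none at 0. They summed to 1312, 743 and 740 CPM in Control 1, 2 and 3 and to 422, 713 and 515 CPM in Treated 1, 2 and 3. Each Treated sum was below each Control sum. In edgeR 2 of these 9 were called lower in Treated, beside 2.57% of all genes tested, and 0 higher, beside 1.13%. Without overlap 4 of the 9, or 44.4%, were lower, beside 22.3%, and 0 higher, beside 23.4%. The fit of all 6 libraries, with Control 2 and 3 counted separately, called 3 lower, beside 9.93%, and 0 higher, beside 8.20%. Annulus and tendon genes, 7 of 7 found and led by Col1a1, summed to 58270, 69710 and 70360 CPM in Control 1, 2 and 3 and to 113800, 86330 and 94970 CPM in Treated 1, 2 and 3. Single genes of this list had log2 fold changes from -0.55 to 1.25. In Treated 3 of the 7 were higher without overlap, beside 23.4% of all genes, and 0 lower, beside 22.3%, and edgeR called 0. Treated 2 stood apart from the other libraries in skeletal muscle genes, with a summed level of 12010 CPM against 2737 CPM in Treated 3 and at most 1277 CPM in the rest. Its erythroid genes, 8 of 8 found and led by Hba-a1, summed to 21940 CPM, next to 13870 CPM in Treated 3 and at most 3070 CPM in the rest.

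The 91 members together took 3.43%, 2.48% and 2.47% of all counts in Control 1, 2 and 3 and 3.31%, 2.89% and 3.36% in Treated 1, 2 and 3. The Wilson 95% interval, which covers counting error only, ran from 2.46% to 2.47% for the lowest share and from 3.42% to 3.44% for the highest. The groups overlapped, because Control 1 had the highest share of all and Control 2 and 3 the lowest. The mean share was 2.95% ± 0.677 (SD, n = 2) in Control and 3.19% ± 0.258 (SD, n = 3) in Treated, a difference of 0.236 percentage points that is smaller than the spread within Control. The size of this difference depends on single libraries and on the total: it was 0.715 percentage points without Control 1, 0.384 without Treated 2, 0.148 without Treated 3 and 0.488 when the 20 genes with most counts were left out of the total. In bulk tissue, fewer cells of a type with much ribosomal protein RNA and less of it per cell cannot be told apart.

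The members moved together from library to library. Relative to each member's own mean over the 5 samples, the median of the 80 tested members lay 0.0611 above in Control 1, 0.140 above in Treated 1 and 0.160 above in Treated 3, in log2 units. It was -0.183 in Control 2, -0.194 in Control 3 and -0.185 in Treated 2. After TMM scaling, Treated 2 was thus near Control 2 and 3, whereas by its share of counts, 2.89%, it lay between these and the other Treated libraries. Within Control, 77 of 80 members were higher in Control 1 than in the summed Control 2 and 3, which is 96.2% beside 49.3% of all 15537 genes tested. The same held for 82.4% of further mRNAs known for a pyrimidine start, 79.2% of mitochondrial ribosomal protein genes and 65.4% of ribosome biogenesis factors. For genes of similar level the contrast was wider: 63 of 63 members with a mean of at least 7 log2 CPM were higher in Control 1, beside 338 of 1101 other genes at that level, or 30.7%. Within Treated, 71 of 80 members were lowest in Treated 2, which is 88.8% beside 35.3% of all genes tested. Treated 2 was also lowest for 76.5% of the further mRNAs known for a pyrimidine start and for 7 of 7 annulus and tendon genes. The share was 37.5% for mitochondrial ribosomal protein genes and 30.7% for ribosome biogenesis factors. At a mean of at least 7 log2 CPM, 95.2% of 63 members and 55.8% of 1101 other genes were lowest in Treated 2, a narrower contrast. The part that other cells in Control 1 or Treated 2 have in this was not tested.

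Markers of several cell types also set Control 1 apart from Control 2 and 3. Neutrophil genes, 9 of 9 found with S100a9 on top and 1 at 0 in a library, summed to 1203, 162 and 153 CPM in Control 1, 2 and 3 and to 281, 3013 and 3845 CPM in Treated 1, 2 and 3. Proliferation genes, 10 of 10 found with Mki67 on top, summed to 413, 237 and 231 CPM in Control 1, 2 and 3 and to 189, 859.7 and 551 CPM in Treated 1, 2 and 3. Osteoblast genes, 5 of 5 found with Ibsp on top, summed to 4864, 1666 and 1657 CPM in Control 1, 2 and 3 and to 2096, 3251 and 1722 CPM in Treated 1, 2 and 3. In these 3 lists the groups overlapped. Other lists were higher in Control 1 than in Control 2 and 3 and higher still in every Treated library. Genes of the nucleus pulposus, 6 of 7 found with Car3 on top and 1 at 0 in a library, summed to 1822, 501 and 491 CPM in Control 1, 2 and 3 and to 7117, 4228 and 3434 CPM in Treated 1, 2 and 3. Adipocyte genes, 8 of 8 found with Fabp4 on top, summed to 621, 127 and 131 CPM in Control 1, 2 and 3 and to 1251, 2113 and 922 CPM in Treated 1, 2 and 3. Without overlap 5 of 6 and 8 of 8 genes of these lists were higher in Treated, beside 23.4% of all genes, and edgeR called 0 of either list, with 5 and 6 at an unadjusted p under 0.05 beside 25.4%. With all 6 libraries, Control 2 and 3 counted separately, it called 2 and 3 of them higher, beside 8.20%. T cell genes, 5 of 7 found with Cd8a on top, summed to 14.0, 14.2 and 13.4 CPM in Control 1, 2 and 3 and to 5.86, 7.33 and 6.89 CPM in Treated 1, 2 and 3, and endothelial genes, 6 of 6 found with Pecam1 on top, to 541, 564 and 548 CPM and to 374, 466 and 427 CPM. Without overlap 4 of 5 and 3 of 6 of these were lower in Treated, beside 22.3% of all genes, and 1 and 0 were higher, beside 23.4%. In edgeR 1 and 0 of them were called lower, beside 2.57%. The fit of all 6 libraries called 3 genes of each list lower, beside 9.93%, and 0 higher, beside 8.20%.

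**Figure D1:**
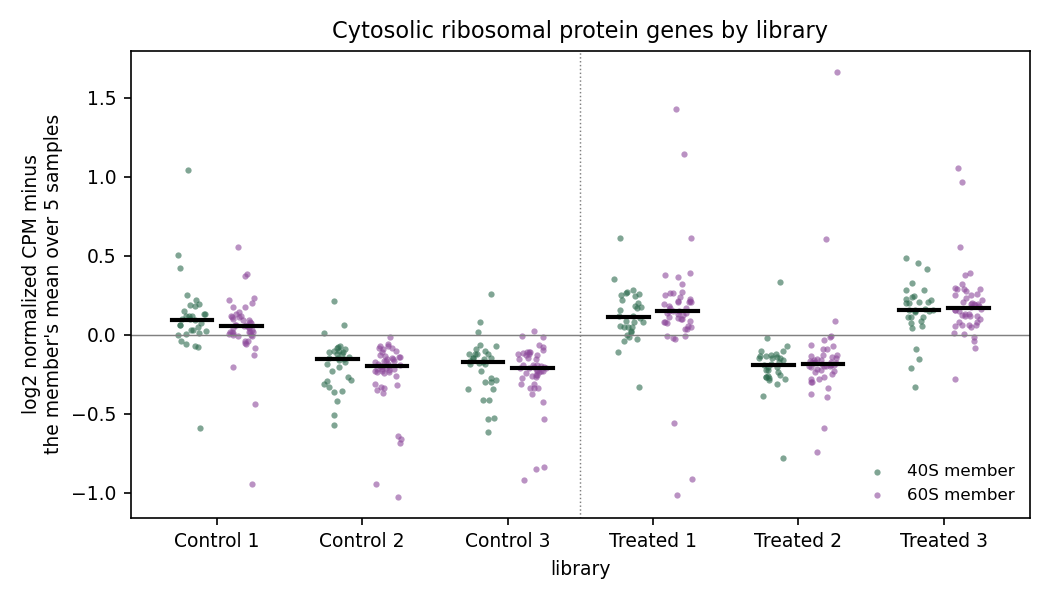
Each point is 1 of the 80 tested members in 1 library, as log2 normalized CPM minus that member's mean over the 5 samples, with 40S members in green, 60S members in purple and black bars for medians. Both subunits sit above 0 in Control 1, Treated 1 and Treated 3 and below 0 in Control 2, Control 3 and Treated 2.

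Between the groups, the quasi-likelihood test of edgeR called 0 of the 80 tested members at an adjusted p under 0.05, beside 3.70% of all 15537 genes tested. In single directions the calls were 0 members higher in Treated, beside 1.13% of all genes, and 0 lower, beside 2.57%. At an unadjusted p under 0.05 the test named 1 member, Rps27l, beside 25.4% of all genes. The tool limma-voom called 0 members, beside 454 of 15537 genes, and DESeq2 called 1, again Rps27l, beside 2493 of 22111 genes. The median log2 fold change of the 80 members was 0.11, beside 0.05 over all genes tested, and 62 of the 80 values were above 0, or 77.5% beside 54.2% of all genes. That median stayed above 0 under each normalization tried, but it depended on single libraries: 0.24 without Control 1, 0.22 without Treated 2, 0.05 without Treated 1 and 0.04 without Treated 3, the last no higher than that of all genes. The median 95% interval of a member reached 0.492 to either side, and for 67 of 80 members the whole interval lay between -1 and 1. For these 67, a change beyond 2-fold lies outside the interval. Without overlap between the groups, 2 members were higher in Treated, beside 23.4% of all genes, and 2 were lower, beside 22.3%. The first pair is Rpl4 and Rpl39, a row with few counts (2.81, 3.09 and 3.23 in Control 1, 2 and 3 and 3.93, 3.23 and 3.22 in Treated 1, 2 and 3 normalized CPM), and the second Rps2 and Rps27l. Rpl39 is without overlap only when Control 2 and 3 are summed, since Control 3 alone is above Treated 2 and Treated 3. A row outside the rule, Rpl39-ps13, held 1930 to 3211 counts per library, with overlapping groups and a log2 fold change of -0.09.

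**Figure D2:**
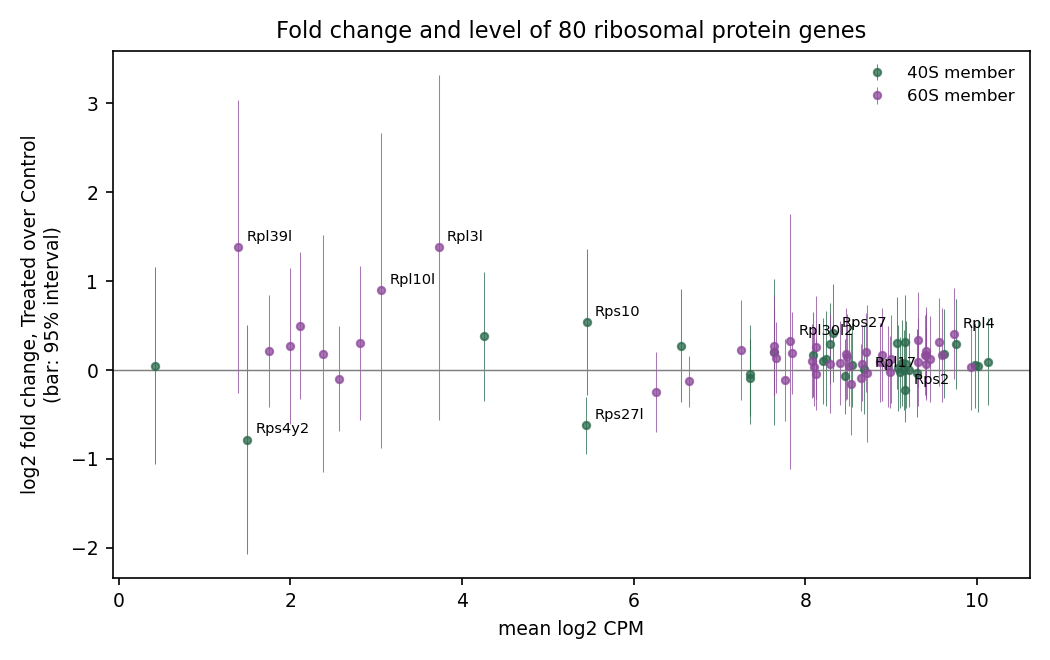
Each point is 1 of the 80 tested members, with its mean log2 CPM on the horizontal axis, its log2 fold change of Treated over Control on the vertical axis and a bar for the 95% interval. The members with a mean of at least 7 log2 CPM lie between -0.22 and 0.42, and the paralogs Rpl3l, Rpl39l, Rpl10l and Rps4y2 lie farther out with wide intervals.

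Of the 39 rows named for the small subunit, 32 were tested, with a median log2 fold change of 0.06 and 23 values above 0. Rpsa, the laminin receptor that also sits in the small subunit, was at 1134, 874 and 901 in Control 1, 2 and 3 and 1141, 922 and 1056 in Treated 1, 2 and 3 normalized CPM. Its groups overlapped, with Control 1 beside Treated 1 at the top (log2 fold change 0.04, 95% interval -0.47 to 0.55, adjusted p = 0.919 in edgeR). Rps6, whose protein is phosphorylated downstream of mTORC1, was at 1054, 918 and 905 in Control 1, 2 and 3 and 1063, 889 and 1106 in Treated 1, 2 and 3 normalized CPM. Treated 2 was its lowest library, and the fold change was 0.05 on the log2 scale (95% interval -0.43 to 0.53). Rps19 and Rps14 are the small subunit genes known from Diamond-Blackfan anemia and from the 5q- syndrome of bone marrow. Rps19 was at 298, 273 and 264 in Control 1, 2 and 3 and 349, 246 and 317 in Treated 1, 2 and 3 normalized CPM, and Rps14 at 813, 639.7 and 639 in Control 1, 2 and 3 and 886, 726 and 865 in Treated 1, 2 and 3. Neither separated the groups: edgeR gave 0.10 on the log2 scale for Rps19 (adjusted p = 0.774) and 0.19 for Rps14 (adjusted p = 0.588). Rps27a, made as a fusion with ubiquitin, had nearly equal means of 567 ± 64.3 (SD, n = 2) in Control and 567 ± 67.7 (SD, n = 3) in Treated normalized CPM (log2 fold change 0.000839, 95% interval -0.45 to 0.46).

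Rps2 had the lowest fold change among the members with a mean of at least 7 log2 CPM. Rps2, a protein of the mRNA entry region, was at 652, 596 and 604 in Control 1, 2 and 3 and 555, 518 and 536 in Treated 1, 2 and 3 normalized CPM. All libraries labelled Treated were below all those labelled Control, with means of 626 ± 36.2 (SD, n = 2) in Control and 536 ± 18.1 (SD, n = 3) in Treated. The log2 fold change was -0.22 (95% interval -0.58 to 0.14, adjusted p = 0.372 in edgeR), and the two-sided exact permutation test over the 5 samples gave 0.1, the smallest p that 3 against 2 samples allow. Rps4x, the X-linked form of its protein, was at 818, 713 and 709 in Control 1, 2 and 3 and 1017, 779 and 1014 in Treated 1, 2 and 3 normalized CPM. Control 1 and Treated 2 overlapped there, with a log2 fold change of 0.29 (95% interval -0.22 to 0.80).

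Of the 52 rows named for the large subunit, 48 were tested, with a median log2 fold change of 0.16 and 39 values above 0. Rpl4, one of the proteins that line the tunnel through which the new chain leaves, was at 769, 652 and 667 in Control 1, 2 and 3 and 1082, 804 and 956 in Treated 1, 2 and 3 normalized CPM. The lowest Treated library, Treated 2, was above the highest Control library, Control 1. Its log2 fold change was 0.41 (95% interval -0.11 to 0.92, adjusted p = 0.274 in edgeR, exact permutation p = 0.2), and it was 0.27 to 0.52 with a library left out. Rpl5 and Rpl11 bind the small ribosomal RNA of the large subunit and, when ribosome assembly fails, also Mdm2. Rpl5 was at 654, 584 and 575 in Control 1, 2 and 3 and 786, 595 and 769 in Treated 1, 2 and 3 normalized CPM, and Rpl11 at 395, 321 and 313 in Control 1, 2 and 3 and 391, 321 and 392 in Treated 1, 2 and 3. For both, Treated 2 lay close to Control 2 and 3 while Treated 1 and Treated 3 lay at or above Control 1, except that Rpl11 was 395 in Control 1 and 391 and 392 in those libraries. On the log2 scale edgeR gave 0.22 for Rpl5 (adjusted p = 0.522) and 0.05 for Rpl11 (adjusted p = 0.89). Rpl10a, at 253, 195 and 206 in Control 1, 2 and 3 and 228, 177 and 225 in Treated 1, 2 and 3 normalized CPM, was 1 of 9 tested large subunit genes with a fold change below 0, at -0.11 on the log2 scale, and was above 0 at 0.063 without Control 1.

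Rplp0, Rplp1 and Rplp2 form the stalk. Rplp0, its base, was at 1014, 911 and 911 in Control 1, 2 and 3 and 1031, 846 and 1077 in Treated 1, 2 and 3 normalized CPM. Rplp1 was at 478, 421 and 396 in Control 1, 2 and 3 and 546, 401 and 552 in Treated 1, 2 and 3, and Rplp2, its partner in the stalk, at 198, 155 and 154 in Control 1, 2 and 3 and 234, 165 and 239 in Treated 1, 2 and 3. The order of libraries was that of the whole family, with Treated 1 and Treated 3 high and Control 2, Control 3 and Treated 2 low. Log2 fold changes were 0.03, 0.17 and 0.27 with intervals of -0.45 to 0.51, -0.35 to 0.69 and -0.29 to 0.84, and none passed the test.

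Rps27l, the paralog of the small subunit gene Rps27, was the member with the smallest p. Its level was 60.2, 49.2 and 50.9 in Control 1, 2 and 3 and 33.8, 35.4 and 38.1 in Treated 1, 2 and 3 normalized CPM. All 3 libraries labelled Treated were below all 3 labelled Control, and means were 55.1 ± 7.16 (SD, n = 2) in Control and 35.8 ± 2.2 (SD, n = 3) in Treated. The log2 fold change was -0.62 (95% interval -0.94 to -0.31), with an adjusted p of 0.0645 in edgeR, short of the threshold, and an exact permutation p of 0.1, the smallest possible. With all 6 libraries as replicates the adjusted p was 0.0205 in edgeR, which made Rps27l 1 member called lower, beside 9.93% of all 15042 genes tested in that fit, while 0 members were called higher beside 8.20%. DESeq2 on the 5 samples gave 0.00222, and over 16 alternatives the adjusted p ran from 0.00222 to 0.193 with log2 fold changes from -0.67 to -0.49.

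Rps27 itself pointed the other way. It was at 299, 236 and 237 in Control 1, 2 and 3 and 403, 284 and 384 in Treated 1, 2 and 3 normalized CPM, where Control 1 exceeded Treated 2 and the groups overlapped (log2 fold change 0.42, 95% interval -0.13 to 0.97, adjusted p = 0.292 in edgeR). Counts of Rps27l were 20.1%, 20.9% and 21.5% of those of Rps27 in Control 1, 2 and 3 and 8.39%, 12.4% and 9.94% in Treated 1, 2 and 3. This ratio compares libraries and not the levels of both genes, since transcript lengths were not used. The log2 ratio was -2.27 ± 0.0535 (SD, n = 2) in Control and -3.30 ± 0.286 (SD, n = 3) in Treated, a difference of -1.03, larger than the spread within either group. The two-sided exact permutation p was 0.1, or 0.200 adjusted over the 6 paralog pairs that had enough counts. Leaving out any 1 library kept the difference between -1.18 and -0.89.

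**Figure D3:**
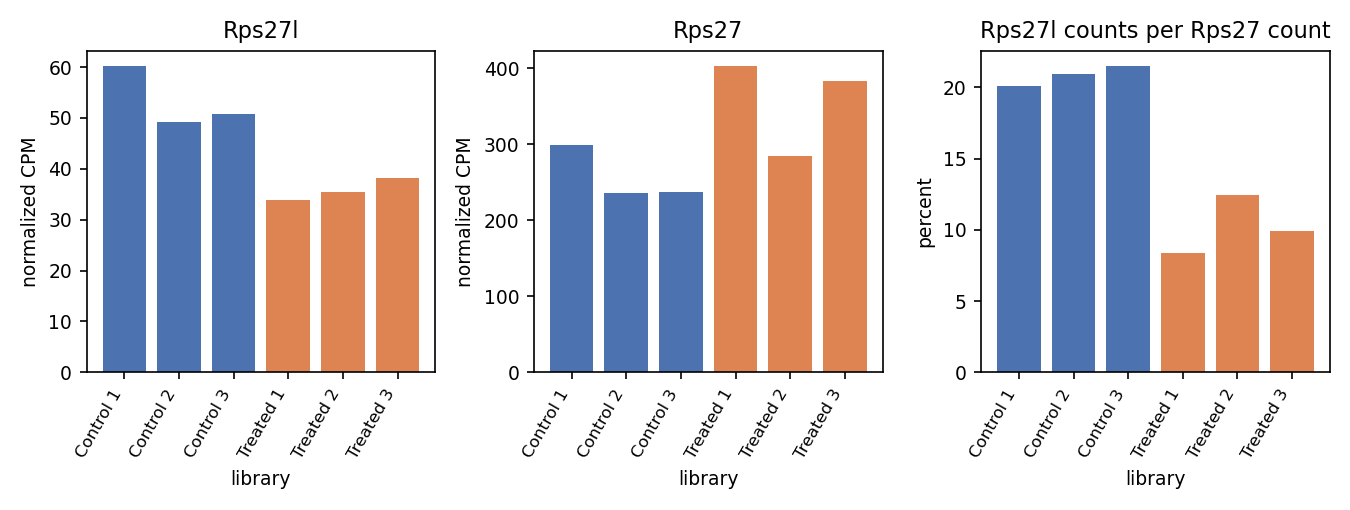
Bars show normalized CPM of Rps27l and of Rps27 and the counts of Rps27l as a percent of those of Rps27, per library, with Control in blue and Treated in orange. The percent lies between 20.1 and 21.5 in Control and between 8.39 and 12.4 in Treated.

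Other paralogs were set against their partners in the same way. Rpl22l1, the paralog of the large subunit gene Rpl22, was at 98.3, 73 and 69.5 in Control 1, 2 and 3 and 74.7, 63.2 and 76.4 in Treated 1, 2 and 3 normalized CPM, and Rpl22 at 201, 176 and 185 in Control 1, 2 and 3 and 219.9, 180.5 and 229.7 in Treated 1, 2 and 3. Counts of Rpl22l1 were 48.9%, 41.6% and 37.5% of those of Rpl22 in Control 1, 2 and 3 and 34.0%, 35.0% and 33.2% in Treated 1, 2 and 3. The percent was lower in every Treated library than in every Control library, with a difference in log2 ratio of -0.36 (exact permutation p = 0.1, adjusted p = 0.200), although Rpl22l1 alone overlapped between the groups, and the difference was -0.21 without Control 1. Without Control 1, the log2 fold change of Rpl22l1 was 0.00174 in place of -0.25. Rps4y2, a row on chromosome 4 with a span of 1269 bases, held 100, 34 and 32 counts in Control 1, 2 and 3 and 47, 23 and 37 in Treated 1, 2 and 3. Its log2 ratio to Rps4x differed by -0.98 without overlap (exact permutation p = 0.1, adjusted p = 0.200), a difference that was -0.43 without Control 1.

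Rpl3l, the form of Rpl3 found in heart and skeletal muscle, was at 7.49, 6.3 and 5.66 in Control 1, 2 and 3 and 5, 32.5 and 15 in Treated 1, 2 and 3 normalized CPM. Treated 2 and Treated 3 stood above the rest, and Treated 1 was the lowest of all. Genes of skeletal muscle followed the same order at the top: 8 of 10 listed names were found, none at 0 in any library, and they summed to 1108, 1261 and 1277 CPM in Control 1, 2 and 3 and to 1034, 12010 and 2737 CPM in Treated 1, 2 and 3. Their highest gene, the muscle actin Acta1, was at 310.0, 324 and 333 CPM in Control 1, 2 and 3 and at 321, 3432 and 804 CPM in Treated 1, 2 and 3. The elongation factor of muscle and neurons, Eef1a2, was at 14.8, 21.7 and 21.3 in Control 1, 2 and 3 and 12.7, 105 and 27 in Treated 1, 2 and 3 normalized CPM, with the same pair of libraries at the top. Rpl3l had a log2 fold change of 1.38 (95% interval -0.56 to 3.32, adjusted p = 0.317 in edgeR) and of 0.58 without Treated 2. Its ratio to Rpl3 gave an exact permutation p of 0.600. The part of muscle tissue in these values was not tested.

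Rpl10l and Rpl39l, the paralogs known from the testis, held few counts. Rpl10l had 141, 54 and 58 counts in Control 1, 2 and 3 and 316, 75 and 121 in Treated 1, 2 and 3, so that 1 library, Treated 1, stood out. Its log2 fold change was 0.90 (95% interval -0.87 to 2.67) and 0.055 without Treated 1. Rpl39l had 20, 20 and 28 counts in Control 1, 2 and 3 and 80, 20 and 73 in Treated 1, 2 and 3, with Treated 2 at the Control level (log2 fold change 1.39, 95% interval -0.26 to 3.03, adjusted p = 0.252 in edgeR). Rpl7l1, named for the large subunit protein Rpl7, was at 112, 93.8 and 101 in Control 1, 2 and 3 and 97.7, 97 and 93.7 in Treated 1, 2 and 3 normalized CPM, with overlapping groups. Rps18l1, a short row named for Rps18, was at 19, 14.3 and 12 in Control 1, 2 and 3 and 22.2, 15.1 and 25.3 in Treated 1, 2 and 3, again with overlap (log2 fold change 0.38, and 0.22 to 0.67 with a library left out). Rpl3 and Rpl10, the partners of Rpl3l and Rpl10l, had log2 fold changes of 0.13 and 0.17. Rpl7 and Rpl26l1 were not analysed here, so 6 of 8 listed pairs have a ratio. In 1 of the 6, the partner Rpl39 is a row of 363 bases with 47 to 66 counts, while Rpl39-ps13 held 1930 to 3211. Counts of Rpl39l were 37%, 43% and 54% of that row in Control 1, 2 and 3 and 121%, 38% and 130% in Treated 1, 2 and 3. The ratio of this pair therefore rests on few counts, and its exact permutation p was 0.3.

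Some pairs of rows divided their counts differently from library to library, and whether shared sequence lies behind this was not tested. Of the 91 members, 19 span fewer than 1000 bases, and these hold 1.01% of the members' counts. Among these, Rpl30l2 (chromosome 10, 36831500 to 36831990, genome build not given in the sources used here) had 4086, 2743 and 2883 counts in Control 1, 2 and 3 and 1827, 3338 and 7386 in Treated 1, 2 and 3. Treated 1 and Treated 3 lie on opposite sides of the other libraries. A row named Rpl30 and typed as a long noncoding RNA (chromosome 7, 65645991 to 65651363), outside the rule, had 2869, 1900 and 1947 counts in Control 1, 2 and 3 and 5806, 2284 and 607 in Treated 1, 2 and 3. Its high and low libraries are the reverse of those of Rpl30l2. The sums of both rows, 6955, 4643 and 4830 in Control 1, 2 and 3 and 7633, 5622 and 7993 in Treated 1, 2 and 3, are higher in Treated 1, Treated 3 and Control 1 than in the other libraries, as are the summed counts of the members. Rpl30l2 held 58.7%, 59.1% and 59.7% of the sum in Control 1, 2 and 3 and 23.9%, 59.4% and 92.4% in Treated 1, 2 and 3. With both rows summed, a comparison added after the values were seen, the log2 fold change was 0.33 with a 95% interval of -0.17 to 0.84, in place of -1.11 to 1.76 for Rpl30l2 alone.

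**Figure D4:**
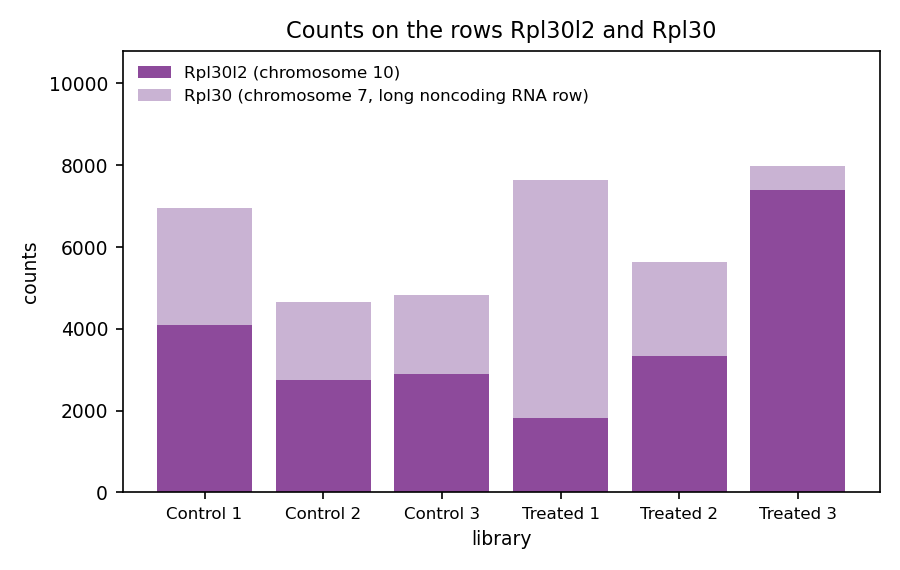
Stacked bars show the counts of Rpl30l2 in dark purple and of the row named Rpl30 in light purple in each library. Rpl30l2 holds 23.9% of the sum in Treated 1, 92.4% in Treated 3 and 58.7% to 59.7% in the others.

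Similar splits appeared in other pairs, chosen after their values were seen. Rps10, a row of 565 bases on chromosome 6, held 10.8%, 22.5% and 24.1% of its sum with Rps10l1 on chromosome 20 in Control 1, 2 and 3 and 24.2%, 24.9% and 10.99% in Treated 1, 2 and 3. Control 1 and Treated 3 were the low libraries. For the row LOC102555453 on chromosome X and Rpl12 on chromosome 3, the share of the first was 11.4%, 23.4% and 24.1% in Control 1, 2 and 3 and 24.04%, 25.4% and 24.04% in Treated 1, 2 and 3, with Control 1 alone low. Rpl12, which binds the base of the stalk, had a log2 fold change of -0.16 with all samples and of 0.18 without Control 1. Rpl17, a protein at the exit of the tunnel, had 4682 counts in Treated 1 and 5951 to 9265 in the other libraries. Whether some of its reads sit on another row was not tested. Control 2 and Control 3 gave nearly equal shares in all 3 pairs.

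Other ribosomal protein reads lie outside the rule. By the deposited descriptions, 345 rows name a cytosolic ribosomal protein, 254 of them under names the rule does not take, and all 345 together held 3.75%, 2.71% and 2.69% of counts in Control 1, 2 and 3 and 3.63%, 3.16% and 3.67% in Treated 1, 2 and 3, in the same order as the 91 members. The row Rpl9-ps30 was at 607, 479 and 481 in Control 1, 2 and 3 and 625, 521 and 682 in Treated 1, 2 and 3 normalized CPM, and the member named Rpl9 held 39 to 94 counts. Rack1, a scaffold protein on the small subunit that its name keeps out of the rule, was at 446, 384 and 389.5 in Control 1, 2 and 3 and 452, 390.2 and 458 in Treated 1, 2 and 3 normalized CPM. Treated 2 was its lowest Treated library, and the groups overlapped (log2 fold change 0.06). Fau, the fusion that yields a further small subunit protein, had 0.36.

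Since the members moved together, the sequence around their annotated starts was read from RefSeq promoters of the GRCr8 build, matched by name and chromosome for 62 of the 91 members. The motif searched, on the strand of the gene, was a C at the start followed by 4 bases that are each C or T. It stood at the start of 20 of 62 members, or 32.3%, beside 2.63% of all 33469 promoters, 3.36% of 119 ribosome biogenesis genes and 3.39% of 59 mitochondrial ribosomal protein genes. A run of at least 7 bases of C or T that reaches into the 5 bases on either side of the start was found in 61.3% of the 62 members and in 12.6% of all promoters. The median log2 fold change was 0.16 for the 20 members with the motif and 0.07 for the 38 tested members without it. This difference was not tested, and the median of all tested members ran from 0.04 to 0.24 with a library left out. The windows below show 15 bases before and 15 bases from the start, with that run in capitals, for the 3 pairs of a paralog and its partner whose ratio did not overlap between the labels (adjusted p = 0.2 each by the exact permutation test), for Rplp0, and for Rpl4 and Rps2, which lay on opposite sides without overlap.
Rps27 (chr2:177964592-177964621, minus strand): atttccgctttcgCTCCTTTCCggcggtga
Rps27l (chr8:76443643-76443672, plus strand): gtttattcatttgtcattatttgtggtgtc
Rpl22 (chr5:168117946-168117975, plus strand): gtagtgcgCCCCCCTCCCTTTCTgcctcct
Rpl22l1 (chr2:113683181-113683210, plus strand): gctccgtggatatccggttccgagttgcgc
Rps4x (chrX:71342907-71342936, minus strand): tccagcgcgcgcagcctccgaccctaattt
Rps4y2 (chr4:183000898-183000927, plus strand): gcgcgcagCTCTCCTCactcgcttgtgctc
Rplp0 (chr12:46718376-46718405, minus strand): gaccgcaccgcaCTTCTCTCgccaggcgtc
Rpl4 (chr8:73566462-73566491, plus strand): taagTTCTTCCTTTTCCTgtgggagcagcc
Rps2 (chr10:14251833-14251862, plus strand): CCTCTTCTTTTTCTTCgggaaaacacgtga
The windows of Rps27l and Rpl22l1 have no such run and those of Rps27 and Rpl22 do, while Rps4y2 has one and Rps4x does not, and neither Rpl3l nor Rpl3 has one. A run at an annotated start describes the sequence and does not show where transcription began in these discs.

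Genes that make ribosomes or control them were read from lists beside the members. Of 127 tested ribosome biogenesis factors, edgeR called 0 higher, beside 1.13% of all genes tested, and 1 lower, beside 2.57%. The latter is Pno1, an assembly factor of the small subunit at 32.3, 30 and 27.9 in Control 1, 2 and 3 and 20.1, 19.1 and 18.9 in Treated 1, 2 and 3 normalized CPM (log2 fold change -0.66, adjusted p = 0.0484). The median log2 fold change of that list was -0.17, beside 0.11 for the members and 0.05 for all genes tested, and 65 of the 127, or 51.2%, were lower in Treated without overlap beside 22.3% of all genes. At an unadjusted p under 0.05 there were 30 of 127, near the 25.4% of all genes. With all 6 libraries, Control 2 and 3 counted separately, edgeR called 3 of the 127 higher, beside 8.20%, and 16 lower, beside 9.93%. No test of the difference between the lists was made. The largest values below 0 beside Pno1 were -0.77 for Rcl1 and -0.63 for Nop16, and those above 0 were 0.75 for Sbds, 0.41 for Dhx37 and 0.40 for Nol6. Of 72 tested mitochondrial ribosomal protein genes 0 were called, with a median of -0.14 and 6 at an unadjusted p under 0.05. Without overlap 20 of the 72, or 27.8%, were lower in Treated, beside 22.3% of all genes, and 1, or 1.39%, higher, beside 23.4%. The fit of all 6 libraries called 2 of the 72 lower, beside 9.93%, and 0 higher, beside 8.20%. Fbl, which methylates ribosomal RNA, was at 46.7, 37.8 and 36 in Control 1, 2 and 3 and 28.3, 31.8 and 31.6 in Treated 1, 2 and 3 normalized CPM, below Control in each Treated library (log2 fold change -0.45, adjusted p = 0.14 in edgeR). The nucleolar proteins Npm1 and Ncl had log2 fold changes of -0.12 and -0.08, and Polr1a and Ubtf, which transcribe the ribosomal RNA genes, 0.04 and -0.02.

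Of 37 tested translation initiation factors, 0 were called higher, beside 1.13% of all genes tested, and 1 lower, beside 2.57%, the helicase Eif4a1, at 466, 417 and 426 in Control 1, 2 and 3 and 239, 271 and 258 in Treated 1, 2 and 3 normalized CPM (log2 fold change -0.79, adjusted p = 0.0483 in edgeR). At an unadjusted p under 0.05 there were 10 of 37, near the 25.4% of all genes, and the list median was -0.14. Without overlap 16 of the 37, or 43.2%, were lower in Treated, beside 22.3% of all genes. With all 6 libraries, Control 2 and 3 counted separately, edgeR called 8 of the 37 lower, beside 9.93% of all genes, and 0 higher, beside 8.20%. In that fit 17 of the 37 were at an unadjusted p under 0.05, beside 5503 of 15042 genes. Of 8 tested elongation factors 0 were called in edgeR, with 3 at an unadjusted p under 0.05. Their median log2 fold change was -0.11, with 3 of the 8 values above 0. Without overlap 2 of the 8 were lower in Treated, beside 22.3% of all genes, and 2 higher, beside 23.4%. Eef2, which moves the ribosome along the mRNA, was at 1432, 1388 and 1410 in Control 1, 2 and 3 and 1584, 1434 and 1488 in Treated 1, 2 and 3 normalized CPM (log2 fold change 0.09). The fit of all 6 libraries called 1 of the 8 lower, beside 9.93%, and 0 higher, beside 8.20%. The row named Eef1a1 held only 6 to 21 counts and was higher in Treated without overlap (log2 fold change 1.20, 95% interval 0.04 to 2.36, adjusted p = 0.189 in edgeR). Of 29 genes of the mTORC1 and Myc pathways 0 were called, with a median of 0.13 and 10 at an unadjusted p under 0.05. Without overlap 10 of the 29, or 34.5%, were higher in Treated, beside 23.4% of all genes, and 4, or 13.8%, lower, beside 22.3%. The fit of all 6 libraries called 4 of the 29 higher, beside 8.20%, and 2 lower, beside 9.93%. Myc, which drives ribosomal protein and biogenesis genes, was at 41.8, 32.9 and 30.1 in Control 1, 2 and 3 and 24.1, 26 and 19.3 in Treated 1, 2 and 3 normalized CPM, below Control in each Treated library (log2 fold change -0.66, adjusted p = 0.121 in edgeR). Its partner Max was at 106, 95.5 and 93.5 in Control 1, 2 and 3 and 191, 151 and 153 in Treated 1, 2 and 3, above Control in each Treated library (log2 fold change 0.73, adjusted p = 0.0746). Mtor, Larp1 and Eif4ebp1, which link growth signals to mRNAs with a pyrimidine start, had log2 fold changes of -0.16, -0.05 and 0.05. Of 17 tested further mRNAs known for such a start 0 were called, with a median of 0.06 and 1 at an unadjusted p under 0.05, among them Tpt1 at 0.10 and Pabpc1 at -0.15. Without overlap 6 of the 17, or 35.3%, were higher in Treated, beside 23.4% of all genes, and 1, or 5.88%, lower, beside 22.3%.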

How the data were processed

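The authors deposited whole-number counts per gene, made with FastQC, Trimmomatic, HISAT2 and featureCounts per the submitters' notes, which used DESeq2 for their own test; the labels list mm10, a mouse build, and the build used for rat is not given in the sources used here. Column names were matched to sample titles. The depth was 15560728 to 17942989 counts per library, for which 3 counts are 0.167 to 0.193 CPM. Genes were filtered with filterByExpr of edgeR 4.0.16 in R 4.3.3 (minimum count 10), scaled by TMM and tested for Treated against Control with the quasi-likelihood test, with Benjamini-Hochberg adjustment over all 15537 genes tested and calls at an adjusted p under 0.05. Intervals are 95% and come from the same fit. Control 2 and 3 were summed. Paralog ratios used 0.5 counts as a prior and a two-sided exact permutation test over 5 samples. Alternatives used DESeq2 1.42.0, limma 3.58.1, other scalings and filters, all 6 libraries and each library left out. The fits of all 6 libraries count Control 2 and Control 3 as separate samples. The code was tested on simulated data.

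Named genes were the 6 largest changes each way with a mean of at least 3 log2 CPM, the paralogs with their partners, the stalk, and members known from disease, plus context genes. A further rule of the design, the highest and lowest levels per kilobase, could not be applied because lengths were not available. The filter left out 11 members. Splits between rows, p53 targets and the member span limit were added after the data were seen. Members and lists were chosen with earlier results of these data known. Levels were not compared between genes, because transcript lengths were not used; the gene named with a marker list is the one with the highest CPM. p-values measure only the spread between these samples, which may be technical.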

Additional observations from a re-analysis of the deposited data

How the results depend on the processing

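No member was called higher in Treated under any alternative (other normalizations, filters and tools, all 6 libraries, or each library left out). Of members called lower, 0 became 1 with all 6 libraries and 1 with DESeq2, in both cases Rps27l; with fewer libraries left in, the count stayed at 0. With all 6 libraries and the replicate block, 0 members were called in either direction beside 741 of 15042 genes. The median log2 fold change was 0.15 there, beside 0.04 over all genes. Titles share numbers, and same-numbered samples correlated at -0.34, -0.30 and -0.08 in their deviations from the group means. These values cannot decide whether the numbers pair the samples, because Control 2 and Control 3 are near duplicates. Both correlated alike with each Treated library, at 0.31 and 0.30 with Treated 1. The median of the members stayed above 0, from 0.04 to 0.24 with a library left out; without Treated 3 it was 0.037, beside 0.044 over all genes. The difference in their share of counts ran from 0.148 to 0.715 percentage points with a library left out, the highest without Control 1, and was 0.488 when the 20 genes with most counts were left out of the total.

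Of 224 values of 15 single genes, 219 kept direction and side of the threshold. These include log2 fold changes near 0: Rps4y2 was at -0.0023 without Control 1, in place of -0.78, and Rpl10a at -9.8e-05 without Treated 2, in place of -0.11. Sign turned without Control 1 for Rpl22l1 (-0.31 to 0.0017 over the libraries left out), Rpl12 (-0.26 to 0.18) and Rpl10a (-0.21 to 0.063); the cause was not tested. All 42 alternative values of the paralog ratios kept their sign, among them those of Rpl39l over the row with few counts named Rpl39. Calls over all genes fell from 575 to 113 without Treated 1 and to 0 without Treated 2 or without Treated 3, so 0 called members says little with fewer samples. Low members such as Rpl39l rest on 20 to 80 counts per library.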

Other observations

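Because p53 can induce Rps27l, 9 other genes known as p53 targets were read after the values of Rps27l were seen. Of these, 5 were lower in Treated without overlap, beside 22.3% of all genes tested, and 1 was higher, beside 23.4%. Those lower were Bax, Zmat3, Aen, Phlda3 and Mdm2, with log2 fold changes of -0.67, -0.70, -0.63, -0.50 and -0.42. Bax was at 17.7, 20.6 and 21.2 normalized CPM in Control 1, 2 and 3 and at 12.9, 10.5 and 12.9 in Treated 1, 2 and 3. Cdkn1a overlapped between the groups at -0.48, Ccng1 and Bbc3 were at 0.03 and 0.08, and Sesn1 was higher at 0.38. None of the 9 passed an adjusted p of 0.05 in edgeR (0 of 9 beside 3.70% of all genes tested, with 5 of 9 at an unadjusted p under 0.05 beside 25.4%). With all 6 libraries, which counts Control 2 and Control 3 as separate samples, 4 of them passed, Bax, Zmat3, Aen and Phlda3. Their adjusted p in edgeR was 0.0203, 0.0234, 0.0337 and 0.0477, beside 9.93% of all genes called lower in that fit. Whether p53 has a part in these values was not tested.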
